A study of Mus musculus with 6 samples.

Results

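The genes of the proteasome were followed in antigen-rechallenged CD4+ T cells given isotype, anti-PD1, or anti-Lag3 antibody. Members were the protein-coding genes whose symbol begins with Psma, Psmb, Psmc, Psmd, or Psme and a number, and which had a total of at least 10 reads in the 6 samples. This rule gave 43 members among the 11877 genes that met the same minimum, and 45 genes before the minimum. The genes under it were *Psma8*, a testis-enriched alpha subunit with 3 reads in all, and *Psmb11*, the catalytic subunit of the thymic epithelium, with 0 reads. *Psmc3ip* also met the symbol rule. It encodes a partner of meiotic recombinases, not a proteasome subunit. Its values are given apart, but it stays among the 43 members in all counts, sums, and medians over the members. The rule used symbols and read totals, and no difference between groups.

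The mice were of the Tg4 Tiger *Nr4a3*-Tocky strain. Their T cells carry a transgenic receptor for a myelin basic protein (MBP) peptide, an *Il10*-GFP reporter, and a Timer protein driven by *Nr4a3* that is blue when new and matures to red. Every group received 80 μg of the [4Y] MBP peptide under the skin, 24 h later 800 μg of antibody, 30 min after that 8 μg of peptide, and was sampled 4 h later. The antibody was an isotype pool of rat IgG1 and IgG2a, anti-PD1 (clone 29F.1A12), or anti-Lag3. *Nr4a3*-Blue+Red+ CD4+ T cells were sorted from the spleen, so that all groups hold T cells with recent and ongoing receptor signaling. Each of the 3 groups had 2 samples. The methods describe suspensions of replicate mice stained individually for sorting. Ages were not given in the sources used here. The p-values measure the spread between these samples. Those of edgeR, and its intervals, rest largely on a variance shared across all genes.

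The proteasome degrades proteins marked with ubiquitin. Its 20S core stacks rings of alpha subunits (Psma genes), which gate the entry, around rings of beta subunits (Psmb genes), of which *Psmb5*, *Psmb6*, and *Psmb7* carry the chymotrypsin-like, caspase-like, and trypsin-like sites. The 19S regulatory particle holds a base of ATPases (Psmc genes) that unfold the substrate, and scaffold, receptor, and deubiquitinase subunits (most Psmd genes). Lymphocytes and interferon-exposed cells also make the inducible subunits *Psmb8*, *Psmb9*, and *Psmb10*, which take the places of *Psmb5*, *Psmb6*, and *Psmb7* to form the immunoproteasome, and the PA28 cap of *Psme1* and *Psme2*. The immunoproteasome supplies peptides for MHC class I and also serves activated T cells.

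Libraries were made from the 3′ ends of transcripts and held 2107715 to 2648920 counts per sample. Levels are given as CPM, the count of a gene relative to the TMM-scaled total of its sample. A transcript gives reads near its 3′ end whatever its length, so CPM was not divided by gene length, although capture may still differ between genes. A count of 3 reads equals 1.13 to 1.42 CPM. The rRNA-like gene *Gm42418* took 17.35% to 21.04% of counts. Each T cell marker fixed for the check (7 of 7) was detected, with summed levels of 1652 to 2070 CPM. The summed level of 4 reporter and activation genes overlapped between all groups. Of these 4, 2 had a log2 fold change above 0 for anti-PD1 over isotype. *Nr4a3* was at 51.4 and 45.1 CPM with isotype, 29.7 and 29.4 CPM with anti-PD1, and 40.9 and 36.8 CPM with anti-Lag3. It was lower than isotype with both antibodies without overlap, at an edgeR adjusted p of 0.195 for anti-PD1.

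The proteasome was a well-detected part of the transcriptome of these cells. Its 43 members took 0.733% to 0.822% of the counts of a sample, and their summed level was 7638 and 7795 CPM with isotype, 7553 and 7621 CPM with anti-PD1, and 7494 and 8089 CPM with anti-Lag3. The anti-PD1 sums lay just under those of isotype, and the anti-Lag3 sums spanned both. Of the members, 32 had a mean of at least 100 CPM, 8 lay between 30 and 100 CPM, and 3 lay under 30 CPM. *Psma7*, the alpha ring subunit with the highest level, ran from 676 to 744 CPM and ranked 122nd of all genes tested. The next were *Psme1* of the PA28 cap, with a mean of 416 CPM, and the ATPases *Psmc1* and *Psmc3*, with 415 and 367 CPM. In no sample did another member reach the lowest *Psma7* value, while *Psme1* and *Psmc1* had overlapping ranges and could not be put in order.

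Members varied little between samples. The ratio of the highest to the lowest sample had a median of 1.27 over the 42 members with a mean of at least 10 CPM, with a range of 1.08 to 1.86. Over all 7138 genes at that level the median was 1.51. The members' median level was higher, 158 against 41.0 CPM, and counting error falls with level, so nothing particular to the proteasome can be read from the smaller ratio. *Psma3* and *Psma2* in the alpha ring ran from 100 to 112 CPM and from 245 to 264 CPM, and *Psma5*, the alpha subunit with the lowest level, ran from 35.3 to 65.7 CPM.

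The first question was whether blocking PD1 during rechallenge altered the expression of the proteasome. No member passed the test between anti-PD1 and isotype (edgeR's quasi-likelihood test across all genes, Benjamini-Hochberg adjusted p under 0.05). The count was 0 of 43 members, against 0.901% of all genes tested, and the smallest adjusted p of a member was 0.697. At an unadjusted p under 0.05 the count was again 0 of 43, where 8.12% of all genes passed. DESeq2 and limma-voom also called 0 members, with 0 members at an unadjusted p under 0.05 by each. The groups did not overlap for 10 of 43 members, or 23.3%, against 37.4% of all genes. Of these, 3 (*Psmb5*, *Psmd3*, and *Psmd11*) were higher with anti-PD1, where the share over all genes was 19.2%, and 7 were lower, where it was 18.2%. The median log2 fold change over the members was -0.027, and over all genes it was 0.0045.

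The intervals show how much change the data leave room for. The 95% interval of the log2 fold change lay within 0.5 of 0, a 1.41-fold change in either direction, for 32 of 43 members, and within 1 of 0 for 41 of 43. The members whose interval reached past 1 were *Psme2b* and *Psmc3ip*, both of low level. For 2 members, *Psma7* and the 19S scaffold *Psmd2*, it lay within 0.25 of 0. The median standard error was 0.14 on the log2 scale.

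**Figure D1:**
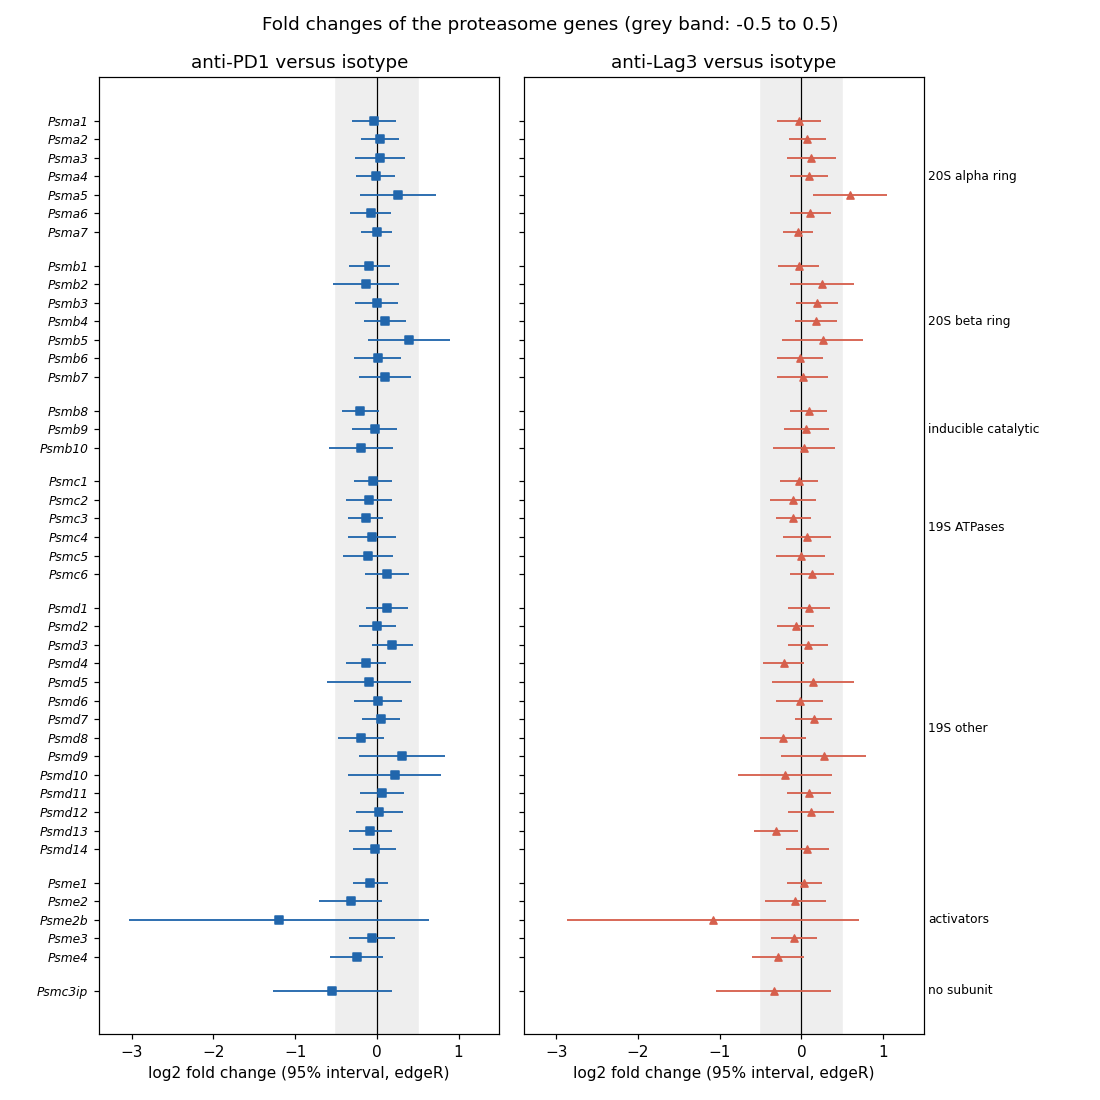
Log2 fold change of each member (rows, grouped by subunit class) for anti-PD1 versus isotype (left) and anti-Lag3 versus isotype (right), as points with 95% intervals from the fit across all genes, and a grey band from -0.5 to 0.5. Both panels share the isotype samples, the intervals cross 0 for all members on the left, and for all but *Psma5* and *Psmd13* on the right.

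The inducible catalytic subunits were detected in every sample. *Psmb8*, which replaces the chymotrypsin-like subunit, lies on chromosome 17 (34197721 to 34201454, GRCm38, plus strand) in the MHC region, 9957 bases from *Psmb9* (34181987 to 34187764, minus strand). *Psmb8* was at 323 and 293 CPM with isotype, 256 and 278 CPM with anti-PD1, and 310 and 345 CPM with anti-Lag3. Both anti-PD1 samples lay under the other 4 samples. The fitted log2 fold change of anti-PD1 over isotype was -0.20 ± 0.11 (SE, n = 2 per group), with a 95% interval of -0.43 to 0.029, and the edgeR adjusted p was 0.697. The size of this difference is 0.869-fold, and the test across all genes did not call it.

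*Psmb9*, which replaces the caspase-like subunit, was at 149 and 161 CPM with isotype, 141 and 164 CPM with anti-PD1, and 167 and 157 CPM with anti-Lag3. These groups overlapped, and the log2 fold change for anti-PD1 was -0.027 with an interval of -0.30 to 0.25. *Psmb10*, which replaces the trypsin-like subunit, was at 85.3 and 56.75 CPM with isotype, 65.6 and 58.1 CPM with anti-PD1, and 69.6 and 74.3 CPM with anti-Lag3. The isotype samples of *Psmb10* lay on either side of all others, so that its log2 fold change of -0.19 for anti-PD1 was within their spread. It became 0.12 without isotype replicate 1.

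The PA28 genes *Psme1* and *Psme2* are neighbors on chromosome 14, 5912 bases apart. *Psme1* was at 422 and 418 CPM with isotype, 367 and 427 CPM with anti-PD1, and 421 and 441 CPM with anti-Lag3. Anti-PD1 replicate 1 alone was low, and the log2 fold change was -0.080 with an interval of -0.29 to 0.13. *Psme2* was at 82.5 and 65.2 CPM with isotype, 54.6 and 63.0 CPM with anti-PD1, and 61.15 and 78.4 CPM with anti-Lag3. Both anti-PD1 samples were under both isotype samples, with a log2 fold change of -0.32 ± 0.19 (SE), an unadjusted p of 0.099, and an edgeR adjusted p of 0.720.

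Set apart from the other members, all 5 immunoproteasome genes had a log2 fold change below 0 with anti-PD1, and 0 of 5 passed the test. Their median was -0.19 against -0.0096 over the other 38 members. For 2 of 5, *Psmb8* and *Psme2*, the anti-PD1 samples lay under the isotype samples without overlap, as did 18.2% of all genes tested. The summed level of the 5 genes was 1062 and 994 CPM with isotype, 884 and 990 CPM with anti-PD1, and 1028 and 1095 CPM with anti-Lag3, so that the second samples of isotype and anti-PD1 were nearly level. The median moved to -0.080 without isotype replicate 1. No test of the 5 genes as a group was made.

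Markers of other cell types moved with the antibody as well. The summed level of 6 B cell genes was 112 and 128 CPM with isotype, 62.3 and 50.7 CPM with anti-PD1, and 81.8 and 122 CPM with anti-Lag3, with *Cd79a* at 0 in all samples. That of 4 antigen presentation genes was 45.7 and 59.97 CPM with isotype, 20.6 and 29.8 CPM with anti-PD1, and 19.4 and 47.9 CPM with anti-Lag3. That of 8 macrophage genes was 63.6 and 51.1 CPM with isotype, 19.6 and 37.6 CPM with anti-PD1, and 29.9 and 30.1 CPM with anti-Lag3. Anti-PD1 was thus lower than isotype in each of the 3 sums without overlap. The CD8 T cell genes *Cd8a* and *Cd8b1* summed to 54.7 and 48.3 CPM with isotype, 34.5 and 29.8 CPM with anti-PD1, and 33.7 and 32.7 CPM with anti-Lag3, while the summed level of 4 globin genes overlapped between all groups. The 7 T cell markers summed to 1906 and 2070 CPM with isotype and 1652 and 1810 CPM with anti-PD1. With anti-Lag3 they summed to 2020 and 1880 CPM. Of these 7 genes, 1 had a log2 fold change above 0 for anti-PD1 over isotype. Anti-PD1 was thus lower than isotype without overlap in the T cell and CD8 sums too. The lower sums were not particular to the B cell, antigen presentation, and macrophage genes. B cells and macrophages also express immunoproteasome genes, and the part of these markers in the values above was not tested. In sorted bulk samples, fewer cells of a type and less RNA per cell cannot be told apart.

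**Figure D2:**
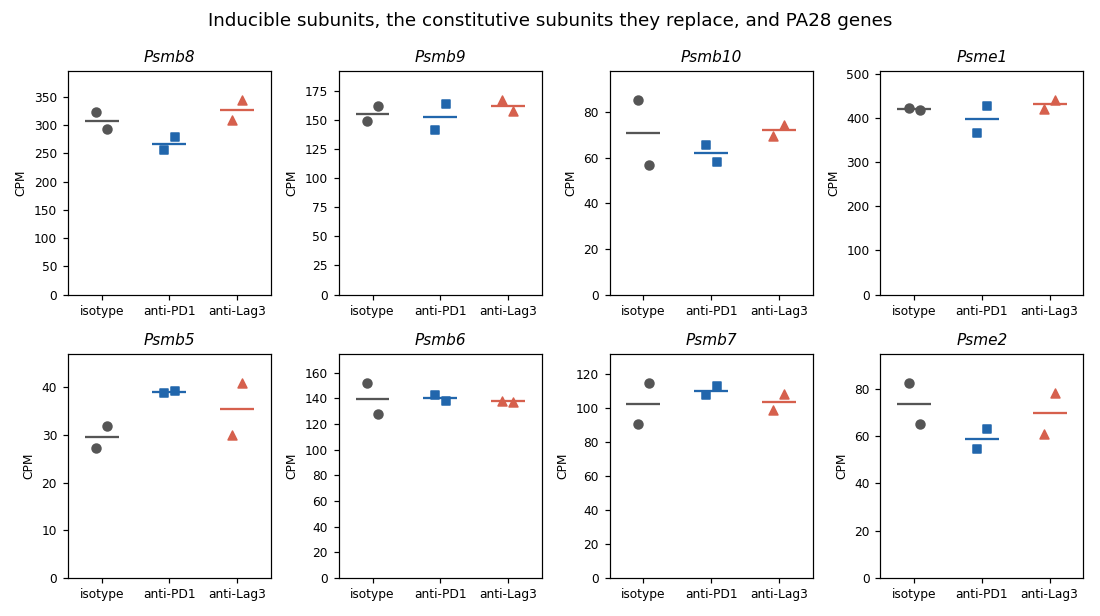
CPM (vertical axes, from 0) of the 3 inducible subunits, the 3 constitutive subunits they replace, and the PA28 genes by group, with a point per sample and a bar at the mean of the 2 samples. Both anti-PD1 samples of *Psmb8* sit under the other 4 samples, both of *Psmb5* sit above the isotype samples, and *Psmb9* and *Psmb6* overlap with isotype for both antibodies.

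The constitutive partner *Psmb5* (chromosome 14, 54614119 to 54618022, minus strand) was far less abundant in reads than *Psmb8*, at 27.3 and 31.8 CPM with isotype, 38.8 and 39.25 CPM with anti-PD1, and 29.9 and 40.9 CPM with anti-Lag3. Both anti-PD1 samples exceeded both isotype samples. The log2 fold change was 0.40 ± 0.25 (SE), with an interval of -0.10 to 0.90 and an edgeR adjusted p of 0.748, the largest rise among members in this comparison. *Psmb6* was at 152 and 128 CPM with isotype and 142 and 138 CPM with anti-PD1. *Psmb7* was at 90.5 and 115 CPM with isotype and 108 and 113 CPM with anti-PD1. Both of these overlapped, with log2 fold changes of 0.0083 and 0.10.

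The ratio of inducible to constitutive reads within a sample does not depend on library scaling. *Psmb8* gave 11.8 and 9.20 reads per *Psmb5* read with isotype, 6.59 and 7.09 with anti-PD1, and 10.3 and 8.44 with anti-Lag3. Both anti-PD1 samples were under the other 4 samples. The mean log2 ratio was 2.77 ± 0.075 with anti-PD1 and 3.38 ± 0.25 with isotype (SD, n = 2 each), a difference of -0.61, or 0.656-fold. The exact two-sided permutation p was 0.333, the smallest that 2 samples against 2 allow, and 1 when adjusted over the 9 ratio tests. The difference between anti-PD1 and anti-Lag3 was -0.45, also without overlap and with the same exact p. Between anti-PD1 and isotype, the fitted log2 fold change was 0.40 for *Psmb5*, at 58 to 96 reads per sample, and -0.20 for *Psmb8*. More of that ratio difference thus came from the constitutive subunit than from the inducible one.

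The other ratios did not separate anti-PD1 from isotype. *Psmb9* gave 0.981 and 1.26 reads per *Psmb6* read with isotype, 0.990 and 1.18 with anti-PD1, and 1.21 and 1.14 with anti-Lag3, a difference of -0.042 on the log2 scale for anti-PD1 (exact p of 1). *Psmb10* gave 0.943 and 0.495 reads per *Psmb7* read with isotype, 0.609 and 0.514 with anti-PD1, and 0.702 and 0.685 with anti-Lag3. The spread within isotype exceeded the difference of -0.29 between anti-PD1 and isotype, while both anti-PD1 values were under both anti-Lag3 values (exact p of 0.333, and 1 when adjusted).

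**Figure D3:**
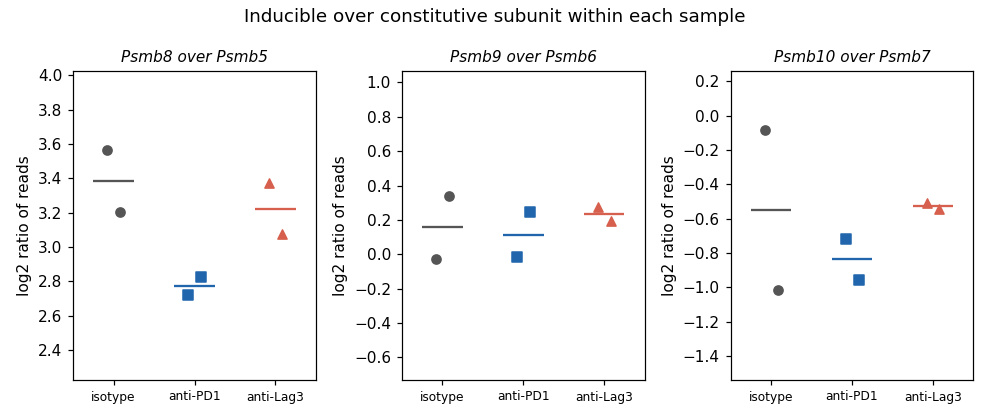
Log2 ratio of the reads of each inducible subunit to those of the constitutive subunit it replaces, per sample (points) with the group mean (bars), on vertical axes of equal span. *Psmb8* over *Psmb5* is lowest in the 2 anti-PD1 samples, *Psmb9* over *Psmb6* overlaps between isotype and anti-PD1, and the isotype samples of *Psmb10* over *Psmb7* lie far apart.

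The sequences before the starts of the constitutive partners *Psmb5* and *Psmb6* are shown. Those of *Psmb8* and *Psmb9* were also set to be shown, but all of their 250 bases lie in annotated exons. Both shown windows hold the core of the antioxidant response element, to which the proteasome regulators *Nfe2l1* and *Nfe2l2* are known to bind. The sequences are from RefSeq (GRCm38.p6), read in the direction of the gene, without bases that GENCODE places in an exon. Capitals mark the match to TGACNNNGC, where N is any base.
Psmb5, chr14:54618023-54618245, minus strand: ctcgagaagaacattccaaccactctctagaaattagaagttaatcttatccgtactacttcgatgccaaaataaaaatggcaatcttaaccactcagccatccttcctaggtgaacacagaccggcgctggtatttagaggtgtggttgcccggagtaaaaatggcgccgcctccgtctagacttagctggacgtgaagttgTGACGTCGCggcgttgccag
Psmb6, chr11:70525107-70525356, plus strand: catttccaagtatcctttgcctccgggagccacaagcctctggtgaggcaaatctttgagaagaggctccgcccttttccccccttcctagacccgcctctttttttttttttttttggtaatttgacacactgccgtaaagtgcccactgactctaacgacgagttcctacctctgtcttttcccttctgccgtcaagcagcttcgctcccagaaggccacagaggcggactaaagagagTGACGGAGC

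The match lay 47 to 39 bases before the RefSeq start of *Psmb5* and 9 to 1 bases before that of *Psmb6*. The 250 bases before the start were searched on both strands for 37 of the 43 members, in 40 windows. TGACNNNGC was found in 12.5% of these windows (*Psmb5*, *Psmb6*, *Psmc6*, *Psmd9*, and *Psmd12*) and in 10.16% of the 32851 windows of all genes. CCAAT was found in 35% against 33.85%, and GAAANNGAA, the core of the interferon-stimulated response element, in 7.5% against 7.129%. TTCNNNGAA, the gamma-activated site, was found in *Psmb8* alone among members, in 2.5% of windows against 7.02%. It lay there as TTCCCAGAA, 97 to 89 bases before the RefSeq start. TGANTCA, an AP-1 site, was found in *Psmd9* alone, in 2.5% against 6.749%. TGACNNNGC and TGANTCA share their first bases and can overlap. The shares among members rest on 1 to 14 windows each. The windows of *Psmb8* and *Psmb9* lie wholly in annotated exons. That of *Psmb8* begins at 34197945, inside the gene as GENCODE places it (34197721 to 34201454). Its gamma-activated site thus lies after that gene start. No window was given for *Psmb1*, *Psmb2*, *Psmb7*, *Psmc3*, *Psmd3*, and *Psmd7*.

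In the rest of the 20S core, the 7 alpha and 7 constitutive beta genes had a median log2 fold change of 0.0033 for anti-PD1 over isotype, with 7 above and 7 below 0 and none called. Only *Psmb5* of these 14 genes separated the groups, where 37.4% of all genes tested did. *Psma1* was at 160 and 190 CPM with isotype, 160 and 183 CPM with anti-PD1, and 161 and 182 CPM with anti-Lag3. The 3 groups of *Psma1* covered nearly the same range, and its intervals, -0.30 to 0.24 for each antibody over isotype, were close to even around 0. For *Psma7* the interval for anti-PD1 was the narrowest of the 20S core, from -0.19 to 0.19.

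The 19S regulatory particle was taken by symbol, as the Psmc and Psmd genes without *Psmc3ip*, and so includes assembly chaperones such as *Psmd9* and *Psmd10*. These 20 genes had a median log2 fold change of -0.012 with anti-PD1, with 10 above and 10 below 0. Each of the 6 ATPases had an interval within 0.5 of 0 in both comparisons with isotype. *Psmc3* was at 397 and 379 CPM with isotype and 355 and 350 CPM with anti-PD1, lower without overlap, with an interval of -0.35 to 0.077. Among the non-ATPase genes, the assembly chaperone *Psmd9* was at 25.0 and 32.2 CPM with isotype, 40.7 and 30.7 CPM with anti-PD1, and 29.5 and 39.7 CPM with anti-Lag3. The groups overlapped, and its log2 fold change of 0.31 had an interval of -0.22 to 0.83. *Psmd10*, the assembly chaperone gankyrin, was at 35.3 and 21.7 CPM with isotype, 28.7 and 36.8 CPM with anti-PD1, and 29.1 and 20.4 CPM with anti-Lag3, and its replicates differed as much as its groups.

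Among the other activators, *Psme4* encodes the PA200 cap. It was at 109 and 94.6 CPM with isotype, 86.7 and 84.2 CPM with anti-PD1, and 84.8 and 81.7 CPM with anti-Lag3. Both antibodies gave lower values than isotype without overlap, with log2 fold changes of -0.25 (interval -0.57 to 0.076) and -0.29 (-0.61 to 0.036) and edgeR adjusted p of 0.769 and 0.854. The isotype samples are shared by both comparisons. *Psme3*, the nuclear PA28 gamma, was at 140 and 145 CPM with isotype, 140 and 135 CPM with anti-PD1, and 124 and 144 CPM with anti-Lag3. *Psme2b*, the lowest member, is a copy of *Psme2* on chromosome 11 and had 3 to 15 reads per sample. Its interval of -3.04 to 0.63 for anti-PD1 bounds little, and reads may be split between it and *Psme2*.

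The second question was whether blocking Lag3 altered the proteasome. The count of members called was 0 of 43 for anti-Lag3 versus isotype, against 0.0421% of all genes, with a smallest edgeR adjusted p of 0.690. At an unadjusted p under 0.05 there were 2 of 43 members, or 4.65%, against 5.96% of all genes. DESeq2 had 1 such member and limma-voom 2, and neither tool called any. The groups did not overlap for 19 of 43 members, or 44.2%, against 34.6% of all genes. Of these, 11 were higher and 8 lower with anti-Lag3, where 17.3% of all genes were higher and 17.3% lower. The median log2 fold change over the members was 0.037, and 32 of 43 intervals lay within 0.5 of 0.

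The members under an unadjusted p of 0.05 were *Psma5* and *Psmd13*. *Psma5* was at 35.3 and 39.4 CPM with isotype, 52.2 and 38.0 CPM with anti-PD1, and 47.2 and 65.7 CPM with anti-Lag3. Both anti-Lag3 samples exceeded both isotype samples, and 1 of the 2 anti-PD1 samples did so. Its log2 fold change for anti-Lag3 was 0.60 ± 0.22 (SE), with an interval of 0.15 to 1.05, an unadjusted p of 0.010, and an edgeR adjusted p of 0.690. Its value was 0.34 to 0.81 when each sample in turn was left out, and the lowest came without anti-Lag3 replicate 2.

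*Psmd13*, a lid subunit of the 19S particle, was at 186 and 173 CPM with isotype, 183 and 157 CPM with anti-PD1, and 151 and 139 CPM with anti-Lag3. Anti-Lag3 was under the other 4 samples, with a log2 fold change of -0.31 ± 0.13 (SE), an interval of -0.58 to -0.038, an unadjusted p of 0.026, and an edgeR adjusted p of 0.776. Of other lid genes, *Psmd8* was at 182 and 147 CPM with isotype and 137 and 144 CPM with anti-Lag3, also lower without overlap, with an interval of -0.51 to 0.051. *Psmd11* was at 153 and 153 CPM with isotype and 158 and 168 CPM with anti-Lag3, higher without overlap. The deubiquitinase *Psmd14* was at 156 and 175 CPM with isotype and 171 and 176 CPM with anti-Lag3, with overlapping groups. The other lid genes *Psmd3*, *Psmd6*, *Psmd7*, and *Psmd12* overlapped too, with log2 fold changes of -0.022 to 0.15, so the lid genes did not share a direction.

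The 20S core had more genes above than below 0 with anti-Lag3. In the alpha and constitutive beta rings 10 of 14 genes were above 0, with a median of 0.099, and 8 of 14 were higher without overlap, where 17.3% of all genes were. The summed level of these 14 genes was 2657 and 2688 CPM with isotype and 2686 and 2876 CPM with anti-Lag3. The sums overlapped, and anti-Lag3 replicate 2 alone stood above isotype. *Psmb2*, a beta ring subunit without a catalytic site, was at 51.4 and 53.9 CPM with isotype, 52.2 and 44.2 CPM with anti-PD1, and 62.0 and 63.9 CPM with anti-Lag3. Its log2 fold change for anti-Lag3 was 0.26, with an interval of -0.14 to 0.65. In the regulatory particle 10 of 20 genes were above 0, with a median of 0.031. The 5 immunoproteasome genes had a median of 0.037, with 4 of 5 above 0 and 5 of 5 intervals within 0.5 of 0. Of them, 0 of 5 separated from isotype, against 34.6% of all genes.

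*Psmc3ip*, the gene outside the proteasome, was at 17.9 and 17.7 CPM with isotype, 13.4 and 11.0 CPM with anti-PD1, and 15.2 and 13.0 CPM with anti-Lag3. Both antibodies gave lower values without overlap. Its log2 fold changes were -0.55 and -0.34, each the largest fall in its comparison among members with at least 10 CPM, with intervals of -1.27 to 0.18 and -1.04 to 0.37. *Mlx* overlaps *Psmc3ip* on the other strand and had 319% as many reads.

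The antibodies were also compared with each other, a contrast between groups without isotype, although its estimate of the spread came from all 6 samples. For anti-PD1 versus anti-Lag3, 0 of 43 members were called, against 0.303% of all genes, and 1 of 43 had an unadjusted p under 0.05, or 2.33%, against 6.53%. DESeq2 had 1 such member, with adjusted p not given for 5, and limma-voom 2, and both called none. The groups did not overlap for 11 of 43 members, or 25.6%, against 35.9% of all genes, with 3 higher in anti-PD1 (18.2% of all genes) and 8 lower (17.7%).

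The member under the unadjusted threshold was *Psmb8*, with a log2 fold change of -0.29 ± 0.11 (SE), an interval of -0.52 to -0.063, an unadjusted p of 0.014, and an edgeR adjusted p of 0.575. It was lower in both anti-PD1 samples than in both anti-Lag3 samples. All 5 immunoproteasome genes were below 0 in this contrast, with a median of -0.22, beside -0.019 over the other 38 members. For 2 of 5, *Psmb8* and *Psmb10*, anti-PD1 was lower without overlap, as were 17.7% of all genes tested. The anti-PD1 samples are the same as those compared with isotype, so these counts do not repeat that comparison independently. *Psmb2* had the largest fall, -0.39 with an interval of -0.79 to 0.0071, and *Psmd10* the largest rise, 0.42 with an interval of -0.15 to 0.98.

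Genes that build, regulate, and feed the proteasome were read from a separate list. Of its genes, 39 were tested, and 0 were called in each of the 3 comparisons. At an unadjusted p under 0.05 the counts were 1 of 39 for anti-PD1 versus isotype, 0 for anti-Lag3 versus isotype, and 1 for anti-PD1 versus anti-Lag3. The shares over all genes were 8.12%, 5.96%, and 6.53%, so that these counts do not stand above the background. *Pomp*, the chaperone that matures the 20S core, was at 302 and 271 CPM with isotype, 311 and 312 CPM with anti-PD1, and 323 and 341 CPM with anti-Lag3. Both antibodies exceeded isotype without overlap for *Pomp*, with log2 fold changes of 0.12 and 0.22, neither called. *Nfe2l1*, the factor that raises proteasome transcription when activity falls short, was at 48.1 and 62.8 CPM with isotype, 58.0 and 61.7 CPM with anti-PD1, and 54.0 and 36.4 CPM with anti-Lag3, with overlapping groups.

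The genes with an unadjusted p under 0.05, named after their values were seen, were *Sqstm1* and *Nfe2l2*. *Sqstm1*, a receptor that carries ubiquitinated cargo to autophagy, was at 35.3 and 50.7 CPM with isotype and 56.5 and 70.3 CPM with anti-PD1, a log2 fold change of 0.55 with an unadjusted p of 0.019. *Nfe2l2*, the antioxidant factor, was at 57.5 and 76.1 CPM with anti-PD1 and 48.9 and 52.0 CPM with anti-Lag3, with an unadjusted p of 0.044.

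On the interferon side, the genes that induce or work beside the immunoproteasome had a median log2 fold change of -0.16 for anti-PD1 over isotype, with 8 of 10 below 0, and -0.040 for anti-Lag3, with 6 of 10 below 0. *Irf1*, which switches on the inducible subunits, was at 101 and 103 CPM with isotype, 97.3 and 86.3 CPM with anti-PD1, and 86.9 and 129 CPM with anti-Lag3. Both anti-PD1 samples of *Irf1* were under both isotype samples, with a log2 fold change of -0.15 and an unadjusted p of 0.36. *Nlrc5*, the activator of MHC class I genes, was at 34.4 and 25.0 CPM with isotype, 23.0 and 28.2 CPM with anti-PD1, and 34.6 and 31.6 CPM with anti-Lag3, and overlapped between isotype and anti-PD1.

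*Tap1*, the peptide transporter that lies head to head with *Psmb9*, was at 153 and 182 CPM with isotype, 149 and 201 CPM with anti-PD1, and 171 and 140 CPM with anti-Lag3, with log2 fold changes of 0.065 and -0.11. It overlaps *Psmb9* on the other strand and had 106% as many reads. The strand setting of the counting was not given in the sources used here, so reads in the shared stretch cannot be assigned with certainty. That stretch lies at the starts of both genes, while the libraries were made from 3′ ends. How many reads fell in it was not tested. Of the 43 members, 15 are overlapped by a gene with reads, and 5 by a gene with at least 5% as many reads as the member: *Psma2*, *Psmb7*, *Psmb9*, *Psmc3ip*, and *Psme2b*.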

How the data were processed

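RNA of sorted cells was made into QuantSeq 3′ libraries. After trimming and alignment with STAR 2.5.2a to GRCm38 (mm10), the authors deposited whole-number read counts per Ensembl gene from HTSeq-count, without normalization. The annotation release and strand setting were not given in the sources used here. The deposited rlog table was not used. Per the study's methods, another batch of replicates, sorted and processed together, had been left out as an outlier. Whether the replicate numbers kept here mark such batches was not stated in the sources used here.

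Genes were named from GENCODE vM21 (47224 of 47643 identifiers matched), and those with at least 10 reads in all were kept. The 6 samples were fitted together in edgeR 4.0.16 (R 4.3.3; TMM, glmQLFit, glmQLFTest). Benjamini-Hochberg adjustment ran over 11877 genes, and adjusted p under 0.05 was a call. Standard errors and 95% intervals come from the fitted variance, with the common dispersion at 0.0160. That variance leans more on all genes than on the gene itself, with 37.2 prior against 3 residual degrees of freedom (medians). Ratios were compared by exact permutation tests. Figures were drawn with matplotlib 3.10.9.

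Alternatives were DESeq2 1.42.0, limma-voom 3.58.1, other scalings and filters, a threshold of 0.1, the comparison's samples alone, the replicate number as a block, and each sample left out. Replicates differed by more than sampling noise, with a chi-square per degree of freedom of 2.65 to 3.29.

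The members and gene lists were chosen with earlier results of these data known. Named members were the immunoproteasome genes, *Psma1*, the constitutive partners, the 3 largest rises and falls per comparison among members with at least 10 CPM, the highest and lowest, and those below the minimum or not subunits. The related genes set to be named were *Nfe2l1*, *Pomp*, *Irf1*, *Nlrc5*, and *Tap1*, and a further gene set to be named is not reported here. Other genes, such as *Sqstm1*, *Nfe2l2*, *Psmc3*, *Psmd14*, and further lid genes, were named after their values were seen. The related list held *Sem1*, *Ecpas*, and *Ufd1* under older symbols as well, which were tested by their current ones. *Paaf1* was not found by symbol, and *Nfe2l3* had 0 reads.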

Additional observations from a re-analysis of the deposited data

How the results depend on the processing

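No member was called in any comparison under any alternative run. Counts over all genes were less stable. For anti-PD1 versus isotype, 107 genes were called, 69 by DESeq2, 166 at a threshold of 0.1, and 46 to 116 with a sample left out. For anti-Lag3 versus isotype, 5 were called, 0 on the 4 samples alone and with filterByExpr, 1 by DESeq2, 3 without *Gm42418* and mitochondrial rRNA, 20 without a filter beyond 1 read, and 1 to 16 with a sample left out. For anti-PD1 versus anti-Lag3, 36 were called, 16 by DESeq2, 58 without that filter, and 3 to 49 with a sample left out. The cause was not tested.

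With a sample left out, the immunoproteasome median ranged from -0.27 to -0.080 for anti-PD1 versus isotype (-0.080 without isotype replicate 1) and from -0.26 to -0.14 for anti-PD1 versus anti-Lag3 (-0.14 without anti-Lag3 replicate 2). It ranged from 0.011 to 0.11 for anti-Lag3 versus isotype. The median of all members ranged from -0.053 to -0.0027 for anti-PD1 versus isotype, from 0.018 to 0.072 for anti-Lag3 versus isotype, and from -0.078 to -0.0065 for anti-PD1 versus anti-Lag3.

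Small fold changes changed sign with a sample left out. For anti-PD1 versus isotype, the log2 ranges were -0.15 to 0.099 for *Psma1*, -0.036 to 0.035 for *Psma7*, -0.47 to 0.12 for *Psmb10*, -0.11 to 0.14 for *Psmb6*, -0.053 to 0.29 for *Psmb7*, -0.14 to 0.075 for *Psmb9*, -0.10 to 0.60 for *Psmd10*, -0.19 to 0.027 for *Psmd13*, and -0.20 to 0.024 for *Psme1*. For anti-Lag3 versus isotype, they were -0.14 to 0.0995 for *Psma1*, -0.095 to 0.011 for *Psma7*, -0.25 to 0.35 for *Psmb10*, -0.14 to 0.12 for *Psmb6*, -0.13 to 0.20 for *Psmb7*, -0.52 to 0.19 for *Psmd10*, and -0.26 to 0.11 for *Psme2*. For anti-PD1 versus anti-Lag3, they were -0.10 to 0.087 for *Psma1*, -0.014 to 0.093 for *Psma7*, -0.064 to 0.37 for *Psmb5*, -0.20 to 0.012 for *Psmb9*, -0.18 to 0.26 for *Psmd9*, and -0.82 to 0.43 for *Psme2b*. Of the values near 0, *Psma7* for anti-PD1 was 0.0015 with limma-voom and *Psmb6* was -0.0040 with upper quartile scaling. *Psmb8* for anti-PD1 versus isotype kept its direction, from -0.27 to -0.13. The log2 ratio of *Psmb8* to *Psmb5* for anti-PD1 versus isotype ranged from -0.79 to -0.43.

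Samples with the same replicate number did not deviate together (correlations of 0.036, 0.033, and -0.055 over 7138 genes), so the numbers were not treated as pairs. With the replicate block, 144, 6, and 46 genes were called in the 3 comparisons and 0 members, and the immunoproteasome median for anti-PD1 versus isotype was -0.18. Where a sample was left out, the lone sample was assumed to vary like the others. Depth limits members under 30 CPM, and *Psme2b* in particular. With 2 samples per group, an exact test cannot go below 0.333.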
